A study of Drosophila melanogaster with 12 samples.

Results

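Superoxide dismutases, catalase and peroxiredoxins dispose of superoxide and peroxides, thioredoxin reduces peroxiredoxins, and DJ-1 is a redox-sensitive protein. Their transcripts were followed in heads of *Drosophila* that express human tau in neurons. The 9 genes described are *Sod1*, *Sod2*, *Sod3*, *Cat*, *Jafrac1*, *Jafrac2*, *Prx3*, *Trx-2* and *DJ-1beta*, taken by gene symbol from a table of isoform abundances. They account for 21 of 30738 isoforms and 9 of 13962 genes in that table. The tau transgenic flies carried the pan-neuronal driver elav-Gal4 with UAS-tau R406W, a human tau with a mutation linked to frontotemporal dementia, and the control flies carried elav-Gal4 alone. Both genotypes therefore share the driver. Each genotype has 3 libraries, each made from a pool of 500 heads of adults at day 10, with both sexes together. A library from pooled heads averages over many flies and over all cell types of the head, while the transgene is driven only in neurons. On nanopores the polyA RNA strand itself was read (direct RNA sequencing), and 6 short-read libraries of control heads were not analysed here. The pools are labelled as replicates with no statement of separate crosses, so a p-value measures the spread between these pools.

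Superoxide is a by-product of respiration and of several oxidases. Superoxide dismutases convert it to hydrogen peroxide and oxygen, and they differ by place: Sod1 works mainly in the cytosol, Sod2 in the mitochondrial matrix, and Sod3 is the extracellular form. Catalase, found in peroxisomes, and the peroxiredoxins then reduce hydrogen peroxide to water. A peroxiredoxin is oxidised as it works and is reduced again by a thioredoxin, which in flies is in turn kept reduced by thioredoxin reductase with electrons from NADPH. DJ-1beta is one of the fly counterparts of human DJ-1 (PARK7), a redox-sensitive protein mutated in a familial form of Parkinson's disease. Neurons are considered vulnerable to oxidants because of their high oxygen use.

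Abundance is given as TPM, the unit in which each library sums to 1000000. NanoCount, the program that made the values, does not divide by transcript length, because a direct RNA read stands for one molecule. TPM is thus the share of a library's assigned reads that a transcript received. Libraries held between 684408 and 1329915 assigned reads in tau heads and between 573001 and 910700 in control heads, as worked out from the steps between low values, and 3 reads correspond to 2.26 to 5.24 TPM. Tau replicate 1 stood apart from the other 5 libraries on the first principal component of all genes, which held 27.7% of the variance, and control replicate 3 stood apart on the second, which held 25.5%. Neuron markers were present in both genotypes: *nSyb*, *Syt1*, *brp* and *para* summed with *elav* to 348 to 562 TPM in tau heads and to 414 to 552 TPM in control heads. The transcript of *elav* itself was at most 2.63 TPM in any library, below the TPM of 3 reads there.

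In tau heads, no antioxidant gene passed the threshold of an adjusted p of 0.05, and the genes that stood out went in both directions. *DJ-1beta* and *Jafrac1* were higher in all 3 tau libraries than in any control library, and *Cat* and *Prx3* were lower in all 3. *Sod1*, *Sod2*, *Sod3*, *Jafrac2* and *Trx-2* overlapped between genotypes. The summed abundance of the 9 genes was 2534, 2581 and 2608 TPM in tau heads, against 2744, 2536 and 2389 TPM in control heads. Together the genes took 0.257% of reads in tau heads and 0.256% in control heads, and the sums did not separate (exact permutation test, two-sided, p = 0.9).

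**Figure D1:**
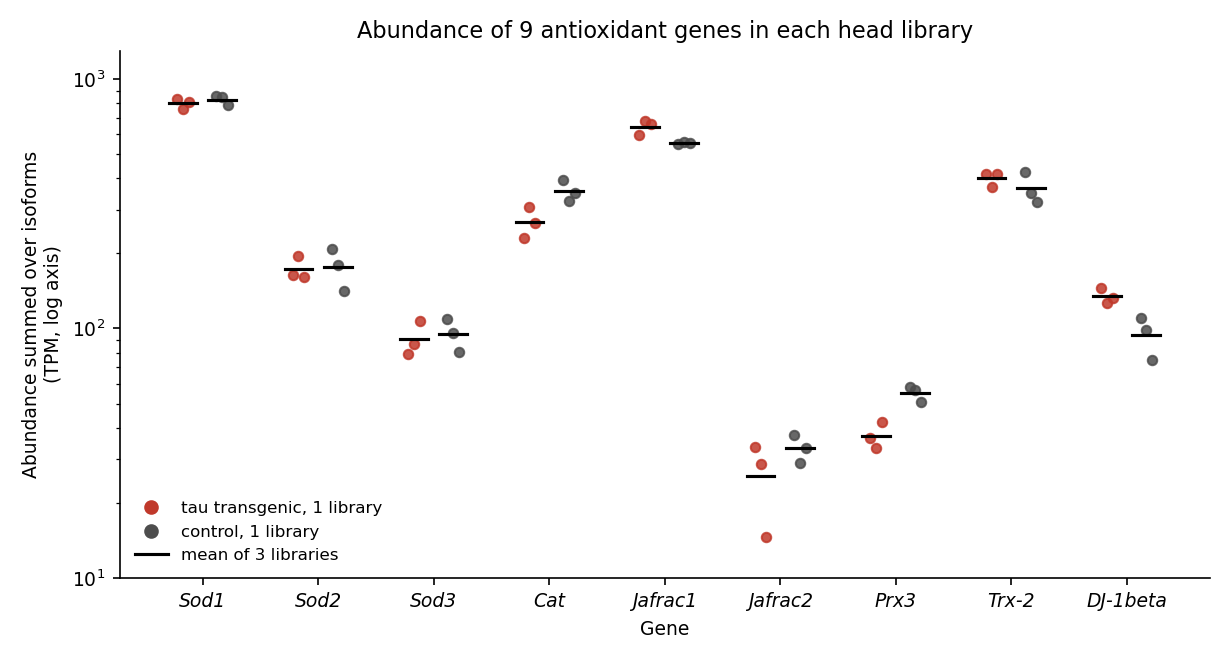
Abundance of each of the 9 genes, summed over its isoforms (y axis, TPM, log scale), by gene (x axis). Each point is 1 library of tau transgenic heads (red, left) or control heads (grey, right), and the bar is the mean of 3 libraries. The genotypes do not overlap for *Cat*, *Jafrac1*, *Prx3* and *DJ-1beta*, and 1 tau library of *Jafrac2* lies at 14.6 TPM, below the other 5.

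The order of abundance was led by *Sod1* and *Jafrac1* in both genotypes. In tau heads it ran from *Sod1* (mean 800 TPM) through *Jafrac1* (645), *Trx-2* (401), *Cat* (268), *Sod2* (174), *DJ-1beta* (135), *Sod3* (90.9) and *Prx3* (37.2) to *Jafrac2* (25.6). Only *Prx3* and *Jafrac2* had ranges that overlapped as neighbours in tau heads. In control heads *Trx-2* (365) and *Cat* (355) overlapped, as did *Sod3* (95) and *DJ-1beta* (94.5). *DJ-1beta* thus stood above *Sod3* in every tau library (126 to 145 against 78.9 to 107 TPM), while in control heads the pair could not be ordered. Among all 8960 genes tested, *Sod1* ranked 188 by mean abundance and *Jafrac2* ranked 3705.

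Of the 9 genes, 0 were called by limma after Benjamini-Hochberg adjustment over 8960 genes, beside 97 of all genes tested (1.08%). At an unadjusted p under 0.05, 3 of 9 passed, which were *Cat*, *Prx3* and *DJ-1beta*, beside 8.15% of all genes tested. Groups that did not overlap were seen in 4 of 9 genes, beside 13.0% of all genes tested, 2 of them higher and 2 lower in tau heads. The median log2 fold change was -0.05 over the 9 genes and -0.04 over all genes tested. Among the 21 isoforms, 14 had a mean of at least 5 TPM and were tested, and 7 were not. Of the 14, 0 were called, beside 97 of 12800 isoforms (0.758%). 4 isoforms had an unadjusted p under 0.05 (*Cat-RA*, *Jafrac1-RB*, *Prx3-RA* and *DJ-1beta-RB*), beside 8.21% of all isoforms tested. The same 4 isoforms did not overlap between genotypes, beside 13.4% of all isoforms tested. They are the only or the main isoform of the 4 genes above, so these counts repeat the same measurements.

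**Figure D2:**
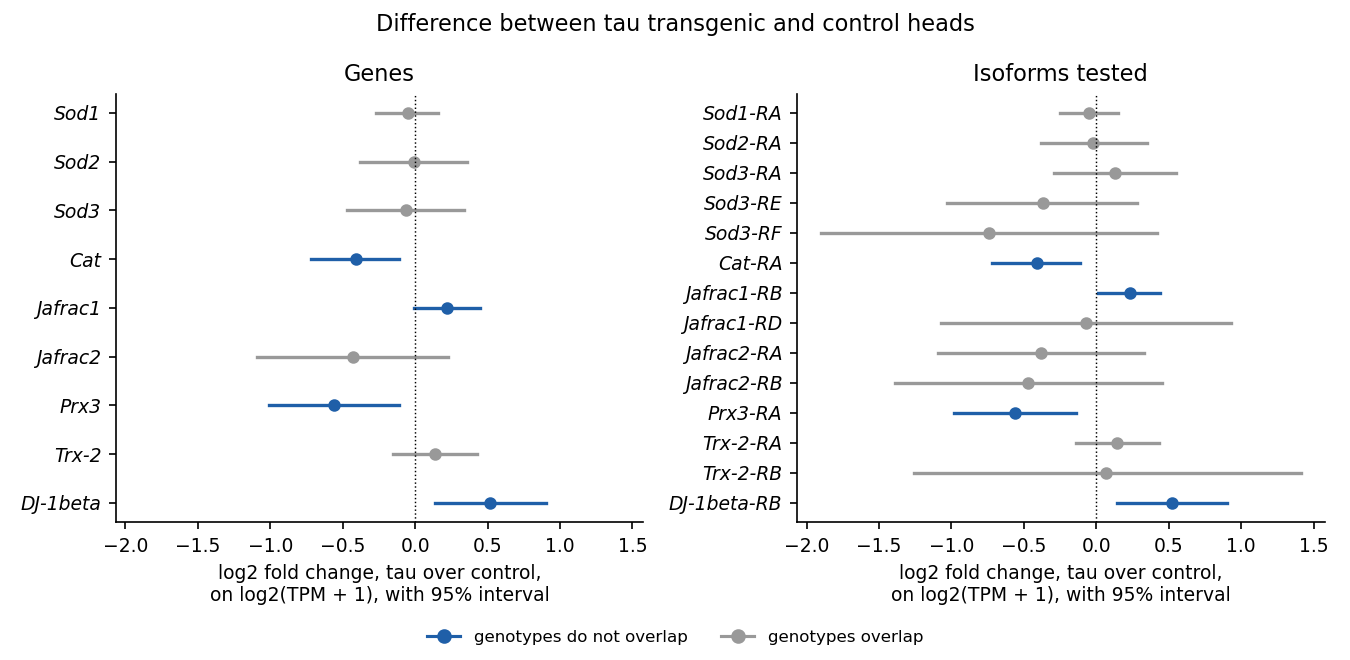
Log2 fold change of tau over control heads on log2(TPM + 1) (x axis) with its 95% interval from limma, for the 9 genes (left) and the 14 isoforms tested (right). Blue marks genes or isoforms whose 3 tau and 3 control libraries do not overlap. *DJ-1beta* lies at 0.52 and *Prx3* at -0.56, and the widest intervals belong to the rare isoforms *Sod3-RF* and *Trx-2-RB*.

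The superoxide dismutases were close in the 2 genotypes. *Sod1* (FBgn0003462), the cytosolic copper-zinc enzyme, lies on the minus strand of chromosome arm 3L from 11112281 to 11113740 (Release 6 assembly, as are all coordinates here) and has 1 isoform of 2 exons. It had 830, 759 and 810 TPM in tau heads and 854, 846 and 785 TPM in control heads, so the libraries interleave. Its log2 fold change was -0.05 (95% interval -0.27 to 0.16), which is a fold between 0.831 and 1.12. *Sod1* was the most precisely measured of the superoxide dismutases, with 450 to 1009 reads a library and a coefficient of variation of 4.60% in tau heads and 4.55% in control heads.

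*Sod2* (FBgn0010213), the mitochondrial manganese enzyme, lies on the minus strand of 2R from 16772785 to 16773915. It had 164, 196 and 161 TPM in tau heads and 209, 179 and 141 TPM in control heads, and the control libraries enclose all the tau libraries. On the log2 scale the fold change was -0.01 (95% interval -0.38 to 0.36), and its sign turned when any of 4 single libraries was left out and when TPM was rescaled by median ratios. *Sod2-RA*, whose 3′ untranslated region has 104 bases, made up 98.3 ± 1.48% of the gene in tau heads and 98.8 ± 0.424% in control heads (SD, n = 3 each). The remainder was *Sod2-RB*, which encodes the same 217 residues with a 3′ untranslated region of 235 bases, and which reached at most 5.26 TPM in any library.

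*Sod3* (FBgn0033631), the extracellular copper-zinc enzyme, lies on the minus strand of 2R from 11380347 to 11384114 and is the member with the most varied isoforms. The gene had 78.9, 86.5 and 107 TPM in tau heads and 109, 96.1 and 80.3 TPM in control heads. These ranges overlap almost fully, with a log2 fold change of -0.06 (95% interval -0.47 to 0.34). All 5 isoforms begin at the same base, and they differ mainly in where and how they end, besides an extra 5′ exon in *Sod3-RB*. *Sod3-RA*, *Sod3-RB* and *Sod3-RF* carry the same coding sequence of 181 residues, *Sod3-RE* splices to a downstream exon that gives 243 residues, and *Sod3-RD* to another that gives 217. *Sod3-RF* reads on from the shared last coding exon into a 3′ untranslated region of 1120 bases, against 244 bases in *Sod3-RA*.

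**Figure D3:**
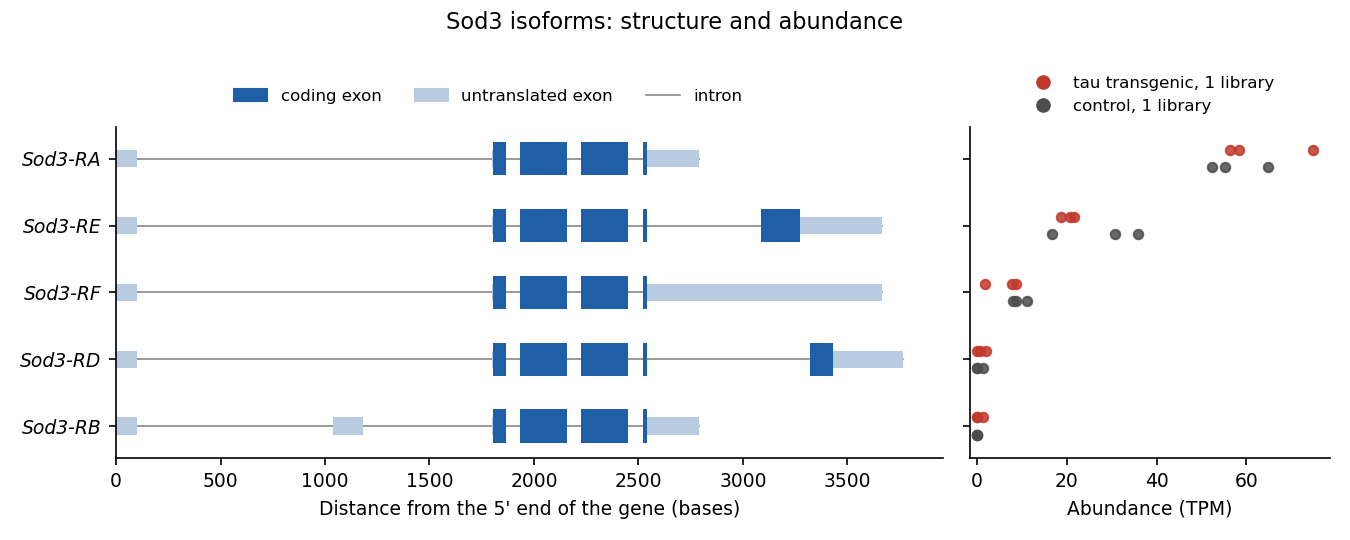
Structure of the 5 *Sod3* isoforms (left; x axis, bases from the 5′ end of the gene, drawn to scale) and the abundance of each in every library (right; x axis, TPM; tau heads red and above, control heads grey and below). *Sod3-RA* is the most abundant in all 6 libraries, at 52.4 to 74.8 TPM, and *Sod3-RD* and *Sod3-RB* are near 0.

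*Sod3-RA* had 58.4, 56.4 and 74.8 TPM in tau heads and 64.8, 55.3 and 52.4 TPM in control heads, which overlap. *Sod3-RE* had 18.8, 20.6 and 21.5 TPM in tau heads and 35.8, 30.7 and 16.8 TPM in control heads, where 2 control libraries lie above and 1 below all tau libraries. *Sod3-RF* had 1.70, 8.72 and 7.81 TPM in tau heads and 8.09, 8.77 and 11.2 TPM in control heads, the lowest resting on 1 read. Of these 3 isoforms, none passed, with limma adjusted p of 0.936, 0.858 and 0.813. As a share of the gene, *Sod3-RA* made up 74.1, 65.2 and 69.7% in tau heads and 59.6, 57.5 and 65.2% in control heads. The lowest tau share and the highest control share are the same to 1 decimal, the means differ by 8.89 percentage points, and the exact permutation test gave p = 0.1, the smallest that 3 against 3 allows. The difference of the means lay between 6.69 and 11.1 points when single libraries were left out. Counted by protein, the form of 181 residues held 76.6 ± 1.47% of *Sod3* in tau heads and 70.9 ± 7.09% in control heads (SD, n = 3 each), and these overlap (exact permutation test, two-sided, p = 0.4). Summed over *Sod1*, *Sod2* and *Sod3*, the superoxide dismutases had 1064 ± 19.8 TPM in tau heads and 1100 ± 84.4 TPM in control heads (SD, n = 3 each; exact permutation test, two-sided, p = 0.5).

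Catalase transcripts had a lower mean in tau heads but did not pass the threshold. *Cat* (FBgn0000261), which encodes the enzyme that splits hydrogen peroxide into water and oxygen, lies on the plus strand of 3L from 18822604 to 18828188 and has 1 isoform of 3 exons and 1993 bases. It had 231, 308 and 264 TPM in tau heads and 393, 324 and 349 TPM in control heads. Every tau library is below every control library, and the closest pair, 308 and 324 TPM, lies within the spread of either genotype. The log2 fold change was -0.41 with a standard error of 0.142, which is 0.751-fold (95% interval 0.607 to 0.929). The unadjusted p of 0.0122 became 0.342 after adjustment in limma. Without tau replicate 1, which holds the lowest value and stands apart over all genes, the log2 fold change was -0.31.

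The 3 peroxiredoxins had log2 fold changes of different sign. *Jafrac1* (FBgn0040309), named *Prx2* in the annotation used, encodes the abundant cytosolic peroxiredoxin and lies on the plus strand of X from 13329824 to 13331994. It had 599, 677 and 658 TPM in tau heads and 549, 558 and 553 TPM in control heads, so that all 3 tau libraries lie above all control libraries. The control values have a coefficient of variation of 0.819%, while counting error alone would give 5.62% at the fewest reads (317). The log2 fold change was 0.22 with a standard error of 0.105 (95% interval -0.01 to 0.45, unadjusted p = 0.0599 and adjusted p = 0.647 in limma).

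The 5 *Jafrac1* isoforms differ only in their 5′ untranslated region and encode the same 194 residues. Reads that stop short of the 5′ end cannot tell them apart, and the paper names 3′ bias as a limit on isoform detection. The shares are thus estimates of how NanoCount divided the reads, and their SD does not include that uncertainty. *Jafrac1-RB* made up 98.1 ± 0.438% in tau heads and 97.4 ± 0.429% in control heads (SD, n = 3 each), which overlap (exact permutation test, two-sided, p = 0.2). It had 590, 661 and 645 TPM in tau heads and 537, 544 and 537 TPM in control heads, and its interval lay just above 0 (log2 fold change 0.23, 95% interval 0.01 to 0.44, limma adjusted p = 0.555). *Jafrac1-RD* had 3.47, 10.2 and 9.06 TPM in tau heads and 7.38, 6.38 and 8.38 TPM in control heads, where the tau libraries lie on both sides of the control libraries. *Jafrac1-RA*, *Jafrac1-RC* and *Jafrac1-RE* stayed at 4.73 TPM or less in every library, a few reads each.

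*Prx3* (FBgn0038519), the mitochondrial peroxiredoxin, lies on the minus strand of 3R from 17545222 to 17546531 and has 1 isoform of 4 exons. It had 36.5, 33.1 and 42 TPM in tau heads and 58.2, 56.6 and 50.6 TPM in control heads. All 3 tau libraries lie below all control libraries, with a gap larger than the standard deviation of either genotype (4.48 TPM in tau heads and 4.00 TPM in control heads). The log2 fold change was -0.56 with a standard error of 0.206, the most negative of the 9 genes, which is 0.678-fold (95% interval 0.498 to 0.924). The unadjusted p was 0.0178 and the adjusted p was 0.405 in limma. *Prx3* rests on 25 to 53 reads a library. Counting error alone would give 20% at the fewest reads, above the coefficients of variation of 12% in tau heads and 7.25% in control heads. The standard deviations therefore understate the uncertainty of the gap.

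*Jafrac2* (FBgn0040308), named *Prx4* in the annotation, encodes the peroxiredoxin of the secretory pathway and lies on the plus strand of 3L from 3042359 to 3044174. The gene *scramb2* overlaps it on the opposite strand. *Jafrac2* had 33.6, 28.6 and 14.6 TPM in tau heads and 37.3, 29.0 and 33.2 TPM in control heads. Tau replicate 3 is far below the rest, tau replicate 2 lies just below the lowest control library, and tau replicate 1 lies among the controls. Its log2 fold change was -0.43 (95% interval -1.09 to 0.23, limma adjusted p = 0.824), and it was -0.09 without tau replicate 3. *Jafrac2-RA* made up 71.5 ± 3.21% in tau heads and 69.6 ± 7.38% in control heads (SD, n = 3 each). Nearly all the rest was *Jafrac2-RB*, which starts downstream and encodes the same 242 residues, with 8.41, 8.81 and 4.19 TPM in tau heads and 14.3, 7.90 and 8.29 TPM in control heads. *Jafrac2-RC* was estimated at less than 1 read in every library. The *Jafrac2* isoforms also differ only at the 5′ end, so the limit given for the *Jafrac1* shares holds here too.

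The sum of *Jafrac1*, *Jafrac2* and *Prx3* was 669, 738 and 714 TPM in tau heads and 645, 644 and 637 TPM in control heads. The sums do not overlap, at 707 ± 35.1 TPM in tau heads and 642 ± 4.13 TPM in control heads (SD, n = 3 each; exact permutation test, two-sided, p = 0.1, the smallest possible). The sum follows *Jafrac1*, since *Jafrac1* alone averaged 645 TPM in tau heads and 553 TPM in control heads. The mitochondrial pair, *Sod2* with *Prx3*, summed to 211 ± 16.1 TPM in tau heads and 231 ± 37.6 TPM in control heads (SD, n = 3 each; exact permutation test, two-sided, p = 0.6).

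**Figure D4:**
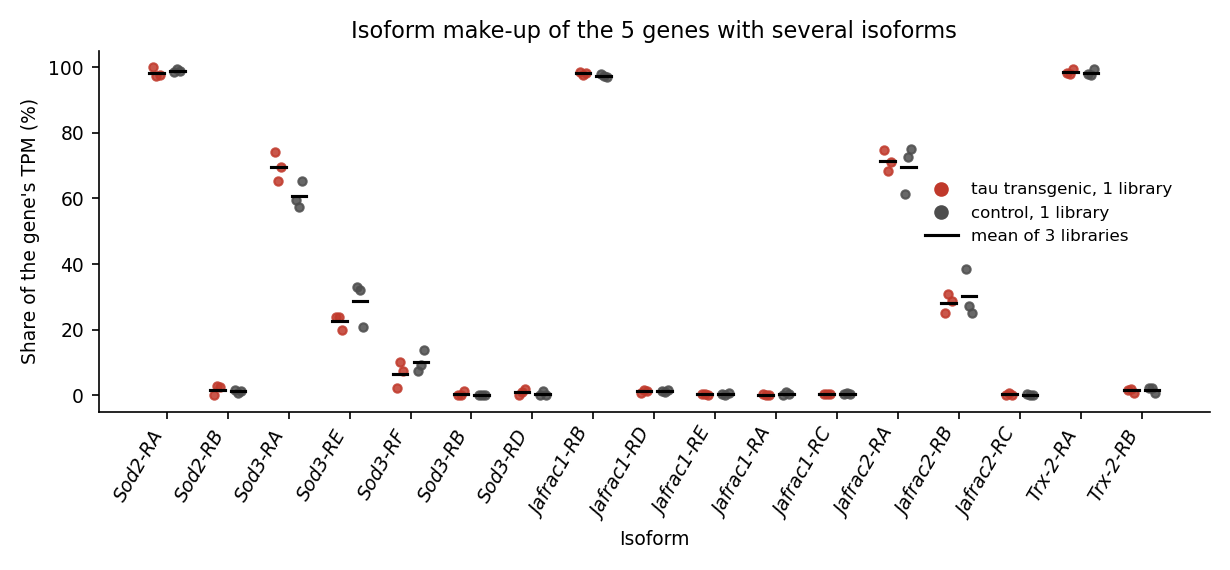
Share of the gene's TPM held by each isoform (y axis, percent) for the 5 genes with several isoforms (x axis). Points are libraries of tau heads (red, left) and control heads (grey, right), and bars are means of 3. A single isoform holds nearly all of *Sod2*, *Jafrac1* and *Trx-2*, while *Sod3* and *Jafrac2* divide between a major and a minor isoform.

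*Trx-2* (FBgn0040070), which encodes the cytosolic thioredoxin that reduces peroxiredoxins, lies on the plus strand of 2L from 9613166 to 9616404. It had 417, 368 and 418 TPM in tau heads and 425, 349 and 321 TPM in control heads. The highest control library lies above all tau libraries and the other 2 lie below them. The log2 fold change was 0.14 (95% interval -0.15 to 0.43, limma adjusted p = 0.895). *Trx-2-RA* made up 98.5 ± 0.707% in tau heads and 98.4 ± 0.942% in control heads (SD, n = 3 each), and *Trx-2-RB*, with longer untranslated regions and the same 106 residues, had 1.75 to 8.78 TPM over the 6 libraries.

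*DJ-1beta* (FBgn0039802) was the member with the most positive fold change. It lies on the plus strand of 3R from 30807117 to 30807978 and has 1 isoform of 3 exons and 733 bases in the table. It had 145, 126 and 133 TPM in tau heads and 110, 98.7 and 75.0 TPM in control heads. The 3 tau libraries lie above the 3 control libraries, and the controls spread more widely than the tau libraries, with standard deviations of 9.30 TPM in tau heads and 17.8 TPM in control heads. The log2 fold change was 0.52 with a standard error of 0.178, which is 1.43-fold (95% interval 1.10 to 1.87). The unadjusted p of 0.0119 became 0.338 after adjustment in limma. Without control replicate 3, the shallowest library, which holds the lowest value and stands apart on the second component, the log2 fold change was 0.36. The paralogue *DJ-1alpha* was far rarer, at 1.95 to 4.51 TPM in tau heads and 2.63 to 6.59 TPM in control heads, and was not tested.

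The 45 genes of 8 further lists were described in the same fit. They are a selection from the peroxide, thioredoxin, glutathione and NADPH systems, their regulators and enzymes that make oxidants, and do not cover these systems in full. *Rsod* and *Sodq* were not found under these symbols in the table, and 37 of the other 43 genes had a mean of at least 5 TPM. Of the 37, 0 were called by limma and 5 had an unadjusted p under 0.05, beside 8.15% of all genes tested. 19 had a positive log2 fold change and 18 a negative one, with a median of 0.04 beside -0.04 over all genes tested. Groups did not overlap in 5 of the 37, a share near the 13.0% of all genes tested. Of these, *PHGPx*, *Grx1* and *Prx2540-2* were higher and *CG6762* and *Idh* were lower in tau heads. *Prx2540-1*, *Prx2540-2* and *CG12896* are near copies of each other, so the division of reads among them is uncertain. *Gss1* and *Gss2* carry nearly the same value in every library and amount to 1 measurement.

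Among the catalases and peroxidases, 0 of 5 tested passed in either direction. *PHGPx*, a glutathione peroxidase homologue, had 367, 351 and 400 TPM in tau heads and 264, 299 and 246 TPM in control heads. Every tau library is above every control library, with a log2 fold change of 0.47, a standard error of 0.128 and an adjusted p of 0.154 in limma, the lowest of the 37 genes. *Irc*, a secreted catalase with immune functions, had 508, 598 and 477 TPM in tau heads and 557, 809 and 731 TPM in control heads, where the highest tau library overlaps the lowest control library. Its log2 fold change was -0.39 with an adjusted p of 0.409 in limma.

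Among the other peroxiredoxin and thioredoxin genes, 0 of 10 tested passed in either direction, with a median of -0.06. *Prx5* had a log2 fold change of 0.04, with 217 to 230 TPM in tau heads and 208 to 228 TPM in control heads. *Trxr-1*, the thioredoxin reductase that also stands in for glutathione reductase in flies, had a log2 fold change of 0.00, with 124 to 193 TPM in tau heads and 133 to 168 TPM in control heads. Among the other superoxide dismutase-like genes, 0 of 2 tested passed. These were *Ccs*, the copper chaperone of Sod1 (14.3 to 23.4 TPM in tau heads and 10.5 to 18.7 TPM in control heads), and *CG5948* (2.92 to 12 TPM in tau heads and 2.20 to 6.58 TPM in control heads), and both overlap.

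Of the 6 genes for glutathione synthesis and glutaredoxin, 0 passed and 5 had a positive log2 fold change, among them both *Gss1* and *Gss2*. *Grx1*, a glutaredoxin, had 143, 183 and 143 TPM in tau heads and 121, 111 and 105 TPM in control heads, with no overlap (log2 fold change 0.47, standard error 0.161, limma adjusted p = 0.338). *Gclm*, the modifier subunit of the enzyme that starts glutathione synthesis, overlapped at 126 to 167 TPM in tau heads and 127 to 156 TPM in control heads. The methionine sulfoxide reductases *SelR* and *MsrA*, which repair oxidised methionine, had log2 fold changes of 0.17 and 0.04 and overlapped.

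Of the 5 genes listed as NADPH-producing enzymes, 0 passed and 4 had a negative log2 fold change. *Taldo*, transaldolase, is on this list but makes no NADPH itself, and it was the positive one at 0.22. *Men*, malic enzyme, had 283, 417 and 382 TPM in tau heads and 528, 508 and 410 TPM in control heads, which overlap (log2 fold change -0.43, limma adjusted p = 0.402). *Idh*, isocitrate dehydrogenase, had 450, 506 and 480 TPM in tau heads and 529, 538 and 546 TPM in control heads, which do not overlap (log2 fold change -0.17, limma adjusted p = 0.792). Of the 5 regulators, 0 passed and 4 had a positive log2 fold change, with a median of 0.27. The transcription factor *cnc*, the counterpart of Nrf2, was at 0.84, with 13.2, 25.6 and 29.3 TPM in tau heads and 7.69, 27.6 and 6.98 TPM in control heads, which overlap (limma adjusted p = 0.749). *maf-S*, a partner of *cnc*, and *foxo*, a stress-responsive transcription factor, had log2 fold changes of 0.14 and -0.13. The 2 tested genes of the oxidant-producing list, *ry* (xanthine dehydrogenase) and *mol* (a maturation factor of Duox), had log2 fold changes of -0.42 and -0.08 and neither passed.

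**Figure D5:**
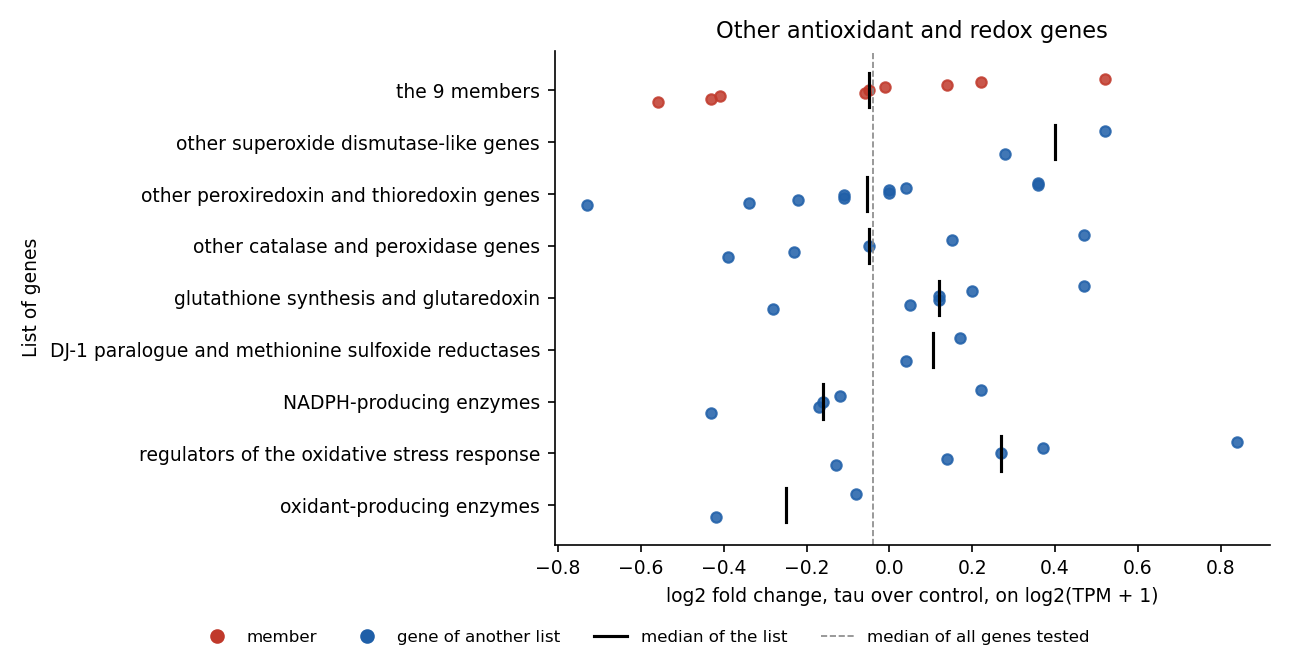
Log2 fold change of tau over control heads on log2(TPM + 1) (x axis) for the 9 members (red) and the 37 tested genes of 8 further lists (blue), 1 point a gene. Black bars are list medians and the dashed line is the median of all genes tested (-0.04). Points fall on both sides of 0 in 5 of the 8 lists and among the members.

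Markers of head tissues were set beside these values, and 0 of them were called by limma. All 5 fat body markers had negative log2 fold changes (median -0.20). Their sums were 28402 to 38053 TPM in tau heads and 35923 to 44000 TPM in control heads, which overlap. The sums are mostly yolk protein transcripts. In tau heads *Yp1*, *Yp2* and *Yp3* averaged 10271, 8672 and 12444 TPM, against 1143 for *apolpp* and 480 for *FASN1*. *Yp3* had the most negative fold change of the 5, at -0.46 (limma adjusted p = 0.0875), while *Yp1* lay at -0.03. Negative log2 fold changes were also found in 6 of the 9 members, *Cat* and *Prx3* among them, beside 4903 of all 8960 genes tested. All 4 muscle markers had positive log2 fold changes (median 0.40). Their sums were 327 to 515 TPM in tau heads and 298 to 445 TPM in control heads, which overlap. The other 3 members, *DJ-1beta*, *Jafrac1* and *Trx-2*, were positive too, beside 4057 of all genes tested. Of 5 photoreceptor markers, 2 were positive and 3 negative, with sums of 35909 to 42791 TPM in tau heads and 31285 to 34838 TPM in control heads, and the sums follow the rhodopsin gene *ninaE* (log2 fold change 0.33, limma adjusted p = 0.071). Medians were 0.01 for neuron, 0.06 for glia and -0.02 for haemocyte markers. The part of these markers in the values of the antioxidant genes was not tested. In RNA from whole heads, fewer cells of a type and less RNA per cell cannot be told apart.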

How the data were processed

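The study sequenced polyA RNA of *Drosophila* heads directly on nanopores, in 3 tau and 3 control libraries. The authors called bases with Guppy, kept reads above a quality minimum, aligned them to the FlyBase transcriptome with minimap2 and deposited the TPM that NanoCount estimated per isoform. The same deposited table holds the authors' DESeq2 comparison in 6 columns, which were not used: a normalized signal averaged over the libraries, the log2 fold change, its error, the test score, and the p-value before and after adjustment.

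Members were matched by symbol without regard to case, and coordinates, exons and coding lengths came from Ensembl release 115. The 9 genes and the further lists were chosen with earlier results of these data known. Further genes were named by 1 rule: those past the threshold and the 2 most abundant of each list. *CG6762*, *Prx2540-2*, *cnc* and *Taldo* were named after their values were seen, and the remaining ones as paralogues, near copies or genes with no row. Isoforms and genes (summed TPM, without 37 isoforms that name no gene) with a mean of at least 5 TPM were tested with limma (v3.58.1, R v4.3.3) on log2(TPM + 1) (lmFit, then eBayes with its trend option; two-sided), with Benjamini-Hochberg adjustment over all tested and a threshold of 0.05. Fold changes are on that scale, which understates those of low genes. Exact permutation tests of 3 against 3 libraries compared shares and sums. Between 41.7 and 44.4% of values were whole reads within 0.01, so no count test was run. In data simulated for isoforms of tau against control, limma called 123 of 200 isoforms changed by 1 on the log2 scale and 197 of 200 changed by 2. The changed isoforms were drawn only from the more abundant ones, and all simulated libraries had the same depth and spread. Changes smaller than 1, the size seen in the members, were not simulated. Alternatives covered the pseudocount, the filter, rescaling, the trend, a replicate block and each library left out.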

Additional observations from a re-analysis of the deposited data

How the results depend on the processing

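The number of members called stayed at 0 isoforms in 14 alternatives and at 0 genes in 13, with the lowest limma adjusted p of any member gene between 0.187 and 0.63. Of 23 isoform and gene results, 18 kept their direction throughout. These results are not all distinct, since *Sod1*, *Cat*, *Prx3* and *DJ-1beta* have 1 isoform each and are counted at both levels. *Sod2-RA* turned to 0.01 and *Sod2* to 0.02 when TPM was rescaled by median ratios. With single libraries left out, *Sod2-RA* ran between -0.17 and 0.11, *Sod2* between -0.16 and 0.12, *Sod3* between -0.19 and 0.04, *Jafrac1-RD* between -0.31 and 0.35 and *Trx-2-RB* between -0.52 and 0.44 (log2). The cause was not tested. *Cat* lay between -0.52 and -0.31, *Prx3* between -0.65 and -0.48, *DJ-1beta* between 0.36 and 0.64 and *Jafrac1* between 0.18 and 0.27 in the same settings. In alternatives chosen after seeing the data, between 4 and 5 members did not overlap without 1 library. *Cat*, *Jafrac1*, *Prx3* and *DJ-1beta* had to be among them, since groups apart with all libraries stay apart with 1 left out. The share over all genes tested ran from 20 to 24.6% in these settings, above the 13.0% with all libraries. The summed TPM of the 9 genes differed by -66.0 TPM without control replicate 3 and by 111 TPM without control replicate 1.

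Over all isoforms, 97 were called, against 0 of 28413 with no filter (1744 at an unadjusted p under 0.05) and 5 without the trend. Over all genes, 97 were called, against 42 with no filter and 4 without the trend. Leaving out 1 library gave 25 to 100 isoforms and 29 to 105 genes, with the fewest without control replicate 3. Same-numbered libraries did not deviate together (correlation -0.054 to 0.042, against -0.12 to 0.116 for other pairs). No shared effect of the replicate number was visible, but 3 pairs cannot exclude a pairing. The replicate block gave 0 members called, 100 isoforms and 77 genes. The lowest adjusted p of the 37 further genes lay between 0.0805 and 0.583. Reads a library were at most 53 for *Prx3* and 38 for *Jafrac2*, and at most 10 for *Trx-2-RB*, 12 for *Sod3-RF* and 14 for *Jafrac1-RD*.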

Other observations

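Ratios of TPM between members were chosen after the values were seen and so are given without a test. They did not overlap between genotypes in 3 of 10 pairs, each of which holds *Jafrac1*. For *Cat* and *Prx3* this follows from the gene values, since *Jafrac1* was higher and both were lower in every tau library. The share over all pairs of genes was not computed. *Jafrac1* over *Cat* was 2.59, 2.20 and 2.49 in tau heads and 1.40, 1.72 and 1.59 in control heads. *Jafrac1* over the mitochondrial *Prx3* was 16.4, 20.5 and 15.7 in tau heads and 9.43, 9.86 and 10.9 in control heads. *Sod1*, which makes hydrogen peroxide, over *Jafrac1*, which removes it in the same compartment, was 1.39, 1.12 and 1.23 in tau heads and 1.56, 1.52 and 1.42 in control heads. The other peroxiredoxins over *Cat* overlapped, at 0.108 to 0.159 in tau heads and 0.145 to 0.175 in control heads for *Prx3*, and at 0.0554 to 0.146 in tau heads and 0.0894 to 0.095 in control heads for *Jafrac2*. *Sod1* over *Cat*, *Sod2* and *Sod3* overlapped as well, as did *Jafrac1* over *Jafrac2* and over *Trx-2*. A ratio within a library does not depend on how the libraries are scaled.

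The *Sod3* transcripts that end in the alternative coding exons were measured apart from the major form. *Sod3-RE* made up 23.8, 23.8 and 20% of the gene in tau heads and 33, 32 and 20.9% in control heads, and these overlap (exact permutation test, two-sided, p = 0.3). *Sod3-RD* never exceeded 1.95 TPM in tau heads or 1.32 TPM in control heads.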
